A study of Mus musculus with 6 samples.

Results

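The genes described here encode the machinery of oxidative phosphorylation. They were 102 of the 37991 genes in the count tables, with 90 in nuclear chromosomes and 12 in mitochondrial DNA. They were taken by mouse symbol: symbols that begin with Nduf, Sdh followed by a to d, Uqcr, Cox4 to Cox8 or Atp5, and the mitochondrial protein genes mt-Nd, mt-Co, mt-Atp and mt-Cytb, with at least 30 counts summed over the 6 libraries. Of 121 symbols that matched, 11 were pseudogenes and 8 others stayed below that minimum. Among the nuclear members 76 are subunits, and 14 are assembly factors or proteins that carry such a name without being a subunit.

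The samples came from the cecum of 3 HBUS mice, numbered 1119, 1192 and 1199, whose tissue was taken after 60 weeks. Each mouse gave 1 serrated polyp and 1 piece of surrounding normal cecum, labelled as distal, so the 6 libraries form 3 pairs, the replicates are separate animals, and the question was how a polyp differs from its own surrounding tissue. The strain is a cross whose gut epithelium expresses HB-EGF (an EGF receptor ligand) and US28 (a chemokine receptor of a herpesvirus) from transgenes. Both tissues carry them, and no mouse without them is part of the comparison. Total counts ran from 6632645 to 13350119 per library, of which the 2 mitochondrial rRNA genes took 46.3% to 75.3%, leaving 1852065 to 5096066 counts for all other genes. These are whole pieces of tissue, and fewer cells of a type cannot be told apart from less RNA per cell. Levels are CPM (a gene's count set against the normalized size of its library), given in the order of mice 1119, 1192 and 1199. A log2 fold change is that of the polyp over the surrounding tissue in the paired edgeR quasi-likelihood fit (n = 3 mice), ± the standard error (SE), with Benjamini-Hochberg adjustment over the 10960 genes tested and a threshold of 0.05.

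In oxidative phosphorylation, complex I oxidizes NADH and complex II oxidizes succinate, and both pass electrons to ubiquinone. Complex III hands them to cytochrome c, complex IV to oxygen, and complex V, the ATP synthase, uses the proton gradient to make ATP. Mitochondrial DNA encodes core membrane proteins of complexes I, III, IV and V, while complex II is wholly nuclear, so the assembled enzymes need transcripts from both genomes. Absorptive colonocytes are known for burning butyrate from the gut bacteria through this pathway.

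None of the 96 members that could be tested passed the threshold between polyp and surrounding tissue (edgeR), while 2.76% of all tested genes did and 1.04% did so with a lower level in polyps. DESeq2 and limma-voom also called none of them. More of them lay below than above the surrounding tissue: in 66 of 96 the log2 fold change was below 0, against 5650 of 10960 over all tested genes. The median log2 fold change was -0.11 over the 84 nuclear and -0.17 over the 12 mitochondrial members, against -0.02 over all tested genes. Genes of 1 library are not independent, so these counts and medians are descriptions. The smallest adjusted p was that of Sdhb, the iron-sulfur subunit of complex II, at -0.53 ± 0.19 with 0.221. In all 12 mitochondrial genes the tissue means differed by less than the SD of the 3 surrounding samples. That SD is a spread between mice, which the pairing sets aside. Within pairs, 2 of the 12 were lower in the polyp of every mouse and 0 were higher in every mouse, against 18.6% and 19.7% of all tested genes. For 62 of the 96 members (64.6%) the 95% interval of the fold change lay within 2-fold in either direction, which was so for 40.4% of all tested genes. The median SE was 0.25 over the members and 0.34 over all tested genes, and the groups were not matched for level.

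**Figure D1:**
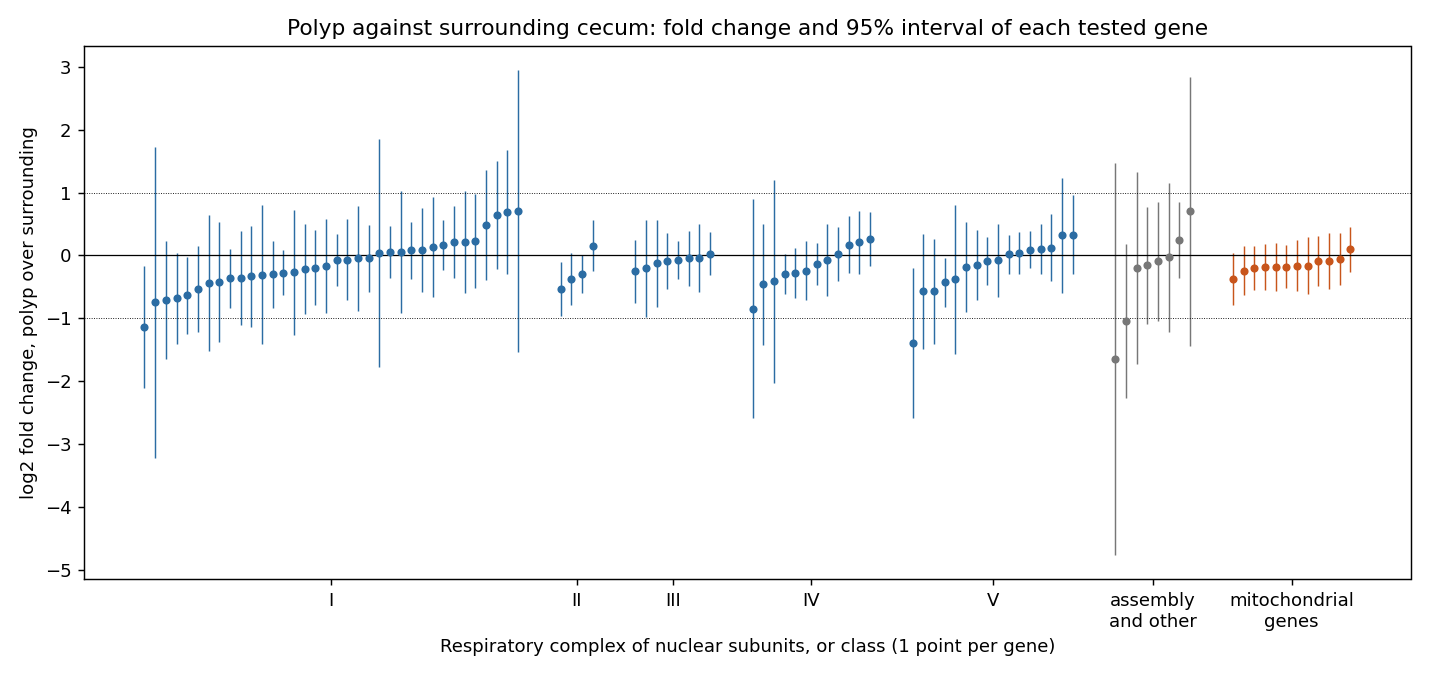
Each point is the log2 fold change (vertical axis, polyp over surrounding tissue) of 1 of the 96 tested genes, and each bar its 95% interval. Genes are sorted within the nuclear subunits of complexes I to V (blue), assembly factors and others (grey) and mitochondrial genes (orange), and dotted lines mark 2-fold; the 12 mitochondrial intervals all lie between the dotted lines, while several nuclear ones reach far beyond.

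An unadjusted p under 0.05 was reached by 5 of 96 members, or 5.21%, compared with 14.6% of all tested genes, and by 3 in DESeq2 and 7 in limma-voom. All 5 had a negative fold change: Sdhb, Ndufv3, Atp5g2, Atp5c1 and Ndufa6. In 10 of 96 members the 3 polyps lay below the 3 surrounding samples without overlap (8.58% of all tested genes did), and in 2 they lay above (9.84% of all). The members below without overlap were Sdha, Sdhb, Ndufv3, Ndufa5, Ndufa12, Cox6c, Atp5c1, Atp5g2 and the assembly factors Ndufaf1 and Ndufaf3, and those above were Ndufb11 and Ndufc1. Within pairs, 20 members (20.8%) were lower in the polyp of every mouse, a share close to the 18.6% of all genes. Another 6 (6.25%) were higher in every mouse, compared with 19.7% of all genes.

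The promoters of 4 members are printed to show where the motifs named here lie or are missing. Sdha, Sdhb and Sdhd belong to complex II, which had the lowest median, and Atp5g2 is the subunit gene with the lowest fold change. Sdhc, the complex II subunit with a positive fold change, is not shown. The sequences are RefSeq (GRCm38.p6), the 120 bases before the annotated start, 5′ to 3′ on the gene's strand. Capitals mark the core of the NRF1 motif (GCGCANGCG) or the ETS motif (CCGGAAG) on either strand; the YY1 motif (AAGATGGC) was also searched and had no match in these 4.
Sdha, chr13:74350241-74350360, minus strand: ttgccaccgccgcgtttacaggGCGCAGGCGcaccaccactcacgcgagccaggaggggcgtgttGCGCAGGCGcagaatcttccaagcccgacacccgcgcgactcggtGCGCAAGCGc
Sdhd, chr9:50603850-50603969, minus strand: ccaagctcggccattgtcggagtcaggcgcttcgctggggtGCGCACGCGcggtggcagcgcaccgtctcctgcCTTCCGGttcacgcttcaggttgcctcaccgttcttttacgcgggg
Sdhb, chr4:140961151-140961270, plus strand: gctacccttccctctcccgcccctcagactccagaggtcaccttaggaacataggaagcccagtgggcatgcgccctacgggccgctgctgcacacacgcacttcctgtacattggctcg
Atp5g2, chr15:102671048-102671167, minus strand: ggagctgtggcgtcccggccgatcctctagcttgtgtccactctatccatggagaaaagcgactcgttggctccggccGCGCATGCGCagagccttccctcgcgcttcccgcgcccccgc
The Sdha window held 3 NRF1 matches, and the Sdhd window held 1 NRF1 match and 1 ETS match. The Atp5g2 window held 2 overlapping NRF1 matches, 1 on each strand of a palindrome. The Sdhb window held none of these 3 motifs, which says only that these letters are not in it.

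Nuclear respiratory factor 1 (NRF1), the ETS factor GABP and YY1 are known regulators of nuclear genes for mitochondrial proteins. Of the 90 nuclear members 75 had a promoter entry, with 80 windows of 300 bases (250 before the start and 50 after it). The NRF1 core was in 31.2% of the member windows and in 6.25% of all 32851 windows. The ETS motif was in 26.2% of member windows and 8.86% of all, and the YY1 motif in 12.5% and 2.75%. The estrogen-related receptor site AAGGTCA was in 10.0% of member windows against 4.72% of all, and the cAMP response element TGACGTCA in 5.00% against 1.79%. TATAAA went the other way, with 8.75% of member windows against 13.6% of all. No set of windows matched for GC content or for expression of the gene was compared. Both strands were searched, and no member window had overlapping matches of different motifs. These 6 spellings, 2 longer NRF1 spellings that were tried and are not shown, and the promoters printed, were chosen after matches and fold changes had been seen, and a match is a string of letters and not a bound site.

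Complex II, the succinate dehydrogenase that also serves the citric acid cycle, had 4 tested subunits with a median log2 fold change of -0.33, the lowest of the 5 complexes. Of the 4, 3 were lower in the polyp of every mouse, as were 18.6% of all tested genes. Sdhb (iron-sulfur subunit, ENSMUSG00000009863) was at 29.6, 30.3 and 28.2 CPM in surrounding tissue and 19.8, 22.2 and 18.9 CPM in polyps. The groups did not overlap, and the replicates of each tissue lay close together, at 29.4 ± 1.07 and 20.3 ± 1.70 CPM (mean ± SD, n = 3). The 95% interval of its log2 fold change ran from -0.96 to -0.10, and the edgeR p of 0.0207 became 0.221 after adjustment. Sdha, the flavoprotein that oxidizes succinate (ENSMUSG00000021577), was at 129, 146 and 121 CPM in surrounding tissue and 108, 111 and 104 CPM in polyps. Again all 3 polyps lay below all surrounding samples, with a log2 fold change of -0.29 ± 0.13 (adjusted p = 0.372, edgeR). In the membrane anchors Sdhd and Sdhc the tissues overlapped. Sdhd was at 82.0, 79.2 and 45.5 CPM in surrounding tissue and 48.1, 64.1 and 45.1 CPM in polyps (-0.37 ± 0.18, adjusted p = 0.405, edgeR). It was lower in every polyp, but the surrounding sample of mouse 1199 lay within the range of the polyps. Sdhc was at 29.8, 31.0 and 36.97 CPM in surrounding tissue and 38.4, 35.2 and 34.4 CPM in polyps, a log2 fold change of 0.15 ± 0.18. The assembly factor Sdhaf2 was tested and did not pass, and Sdhaf1, Sdhaf3 and Sdhaf4 had too few counts to test.

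**Figure D2:**
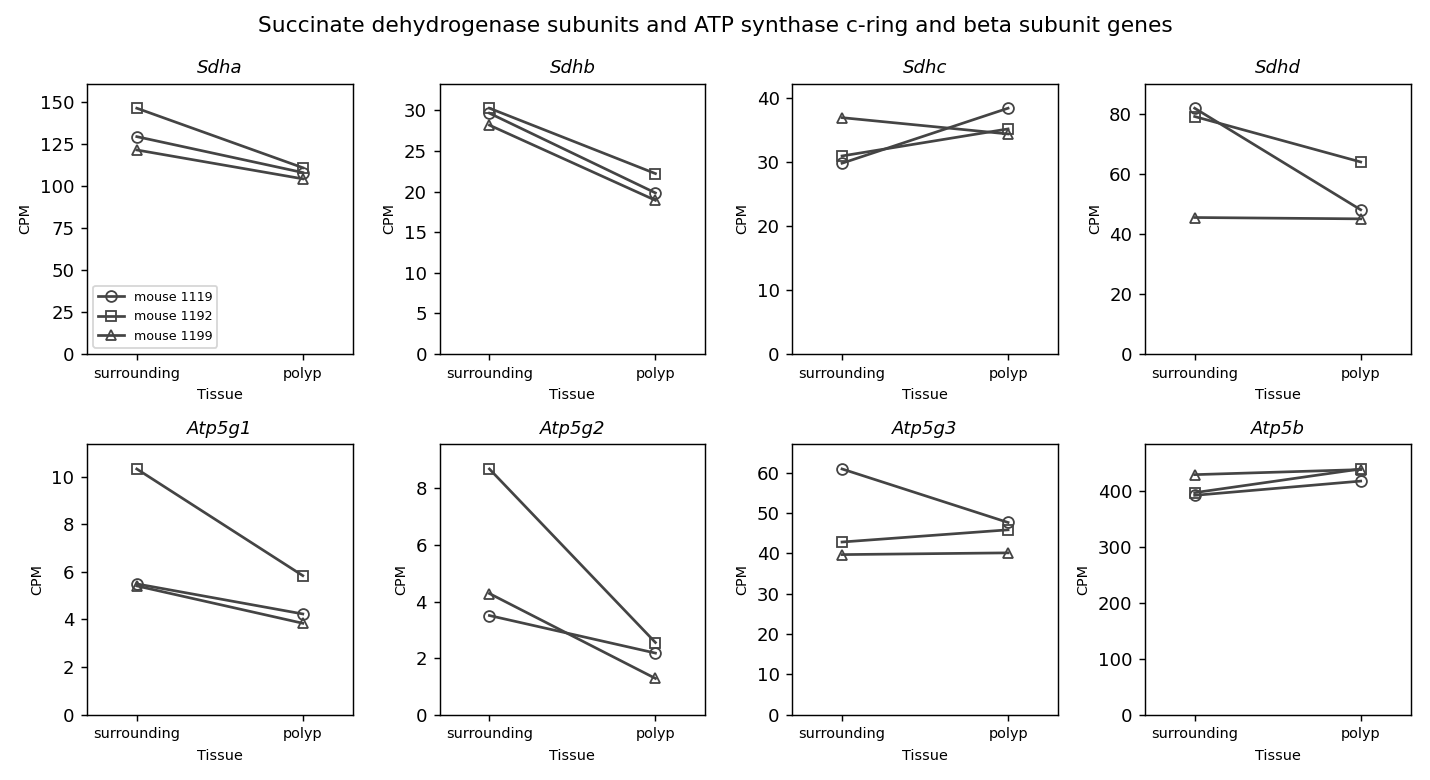
CPM (vertical axes, each starting at 0) of the 4 succinate dehydrogenase genes and of 4 ATP synthase genes in surrounding tissue and polyp; a line joins the 2 samples of 1 mouse, and the symbol gives the mouse. For Sdha, Sdhb and Atp5g2 every polyp lies below every surrounding sample, while Sdhc, Atp5g3 and Atp5b show no such separation.

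Complex I was the largest group, with 36 tested nuclear subunits, of which 22 had a negative and 14 a positive log2 fold change (median -0.12). Its 7 nuclear core subunits, which carry the flavin and iron-sulfur centres, had a median of -0.07, and 6 of their 7 intervals lay within 2-fold. Ndufb9, an accessory subunit with 40.2 CPM per kb, was at 25.9, 25.1 and 40.3 CPM in surrounding tissue and 27.6, 13.4 and 37.5 CPM in polyps, with a log2 fold change of -0.30 ± 0.23; the polyp of mouse 1192 was the low sample, and without that mouse the value was -0.044.

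The 29 accessory subunits of complex I had a median of -0.19 and spread widely. The lowest was Ndufv3, an accessory subunit of the NADH-binding module (ENSMUSG00000024038), at 10.7, 13.03 and 12.6 CPM in surrounding tissue and 9.19, 2.71 and 6.26 CPM in polyps. The 3 polyps lay below all surrounding samples but differed among themselves by more than the whole surrounding group, and the log2 fold change was -1.14 ± 0.43 (adjusted p = 0.251, edgeR) and -0.63 without mouse 1192. The highest was Ndufs5 (ENSMUSG00000028648), an accessory subunit at 1.23, 1.71 and 0.676 CPM in surrounding tissue and 1.57, 1.15 and 4.41 CPM in polyps. This value rests on the polyp of mouse 1199 and few reads, and its interval of -1.54 to 2.95 excludes little; without mouse 1199 the log2 fold change was -0.13. Outside the rule for naming genes, and picked after their values were seen, Ndufa6 was at 27.6, 23.0 and 22.3 CPM in surrounding tissue and 12.9, 23.1 and 12.2 CPM in polyps, with the polyp of mouse 1192 among the surrounding samples (-0.64 ± 0.27, adjusted p = 0.317, edgeR). Ndufa5, picked likewise, was at 9.47, 10.3 and 13.5 CPM and 7.13, 6.99 and 6.26 CPM, without overlap (-0.68 ± 0.32, adjusted p = 0.376, edgeR). The accessory subunits that lay above without overlap had small counts. Ndufc1 was at 3.79, 2.49 and 3.83 CPM in surrounding tissue and 5.80, 4.36 and 5.97 CPM in polyps (0.69 ± 0.43). Ndufb11 was at 5.40, 4.41 and 4.28 CPM and 5.80, 6.33 and 7.82 CPM (0.49 ± 0.38). Both intervals included 0.

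Complex III had 8 tested nuclear subunits, 7 with a negative and 1 with a positive log2 fold change, all between -0.25 and 0.03, and all 8 intervals lay within 2-fold. The core proteins Uqcrc1 and Uqcrc2 form the matrix side of the complex. Uqcrc2 (ENSMUSG00000030884) was at 142, 129.6 and 135 CPM in surrounding tissue and 131, 133 and 122 CPM in polyps. Uqcrc1 (ENSMUSG00000025651) was at 55.4, 53.7 and 47.6 CPM in surrounding tissue and 54.8, 54.1 and 50.9 CPM in polyps. Both kept a narrow range over all 6 samples, with log2 fold changes of -0.07 ± 0.13 and 0.03 ± 0.15 (the latter -0.0070 under upper-quartile normalization) and intervals of -0.37 to 0.23 and -0.31 to 0.37. Uqcrb, a small subunit (ENSMUSG00000021520, 78.5 CPM per kb), was at 33.9, 50.8 and 53.2 CPM in surrounding tissue and 42.3, 41.4 and 30.4 CPM in polyps, the lowest log2 fold change of the complex at -0.25 ± 0.22. Its groups overlapped, and the value was -0.0077 without mouse 1199 and -0.55 without mouse 1119.

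Complex IV had 12 tested nuclear subunits, 8 with a negative and 4 with a positive log2 fold change (median -0.19). Ndufa4, named for complex I, is counted here, where it is now placed. Cox4i1 (ENSMUSG00000031818), the subunit with the highest level per kilobase in the complex at 143 CPM per kb, was at 116, 115 and 112 CPM in surrounding tissue and 91.9, 124 and 98.8 CPM in polyps (-0.13 ± 0.15). Cox6c (ENSMUSG00000014313), a small membrane subunit at 117 CPM per kb, was at 98.3, 86.9 and 101 CPM in surrounding tissue and 81.7, 70.6 and 80.8 CPM in polyps. The groups of Cox6c did not overlap, while those of Cox4i1 did, and for Cox6c the log2 fold change was -0.30 ± 0.14 (adjusted p = 0.377, edgeR). Cox5a (ENSMUSG00000000088), a matrix-side subunit, had the highest fold change of the complex, at 25.3, 32.7 and 46.2 CPM in surrounding tissue and 34.8, 44.9 and 41.2 CPM in polyps (0.26 ± 0.19). Cox7c (ENSMUSG00000017778) had the lowest, -0.85 ± 0.72, at 9.28, 39.1 and 4.28 CPM in surrounding tissue and 6.77, 5.43 and 8.82 CPM in polyps. The Cox7c value rests on 1 sample, the surrounding tissue of mouse 1192, and without that mouse it was 0.18.

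Cytochrome oxidase has subunit isoforms that differ between tissues, and the cecum showed the common ones. Cox4i1 had 6299 counts over the 6 libraries and its lung-type isoform Cox4i2 had 1. Cox6a1 had 3560 counts and the heart and muscle isoform Cox6a2 had 0. A count of 0 allows up to 3 counts by counting error alone, or 0.214 to 0.676 CPM in a library. Cox8a had 2746 counts and Cox8b, also a heart and muscle isoform, had 1. Of Cox6b2, the testis isoform, 5 counts were found, all in polyps, 4 of them in mouse 1119. These isoforms stayed below the count minimum together with Cox7b2 and Cox8c (0 each), the complex IV paralogue Ndufa4l2 (1) and the mitochondrial gene mt-Nd4l (9). Cox7a1, an isoform of heart and skeletal muscle, did reach it, at 2.65, 2.71 and 2.70 CPM in surrounding tissue and 0.967, 2.06 and 3.98 CPM in polyps, with no separation of the groups (-0.41 ± 0.71).

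Complex V had 16 tested nuclear subunits, 9 with a negative and 7 with a positive log2 fold change (median -0.08). Its catalytic head is built from the alpha and beta subunits, whose genes Atp5a1 and Atp5b took 26.8% to 31.2% of all reads of the nuclear members in a library. Atp5b (ENSMUSG00000025393) was at 392, 397 and 429 CPM in surrounding tissue and 417, 439 and 438 CPM in polyps. Atp5a1 (ENSMUSG00000025428) was at 389, 419 and 504 CPM in surrounding tissue and 399, 476 and 450.0 CPM in polyps. The tissues overlapped for both, and these 2 genes gave some of the narrowest intervals of the set, -0.21 to 0.39 for Atp5b (0.09 ± 0.13) and -0.30 to 0.33 for Atp5a1 (0.02 ± 0.14, and -0.020 under upper-quartile normalization). Atp5e (ENSMUSG00000016252), the epsilon subunit of the central stalk, had the highest fold change, at 12.5, 15.0 and 10.6 CPM in surrounding tissue and 11.5, 18.9 and 18.6 CPM in polyps (0.33 ± 0.27), but its value was 0.094 without mouse 1199. Atp5c1, the gamma subunit of the same stalk, chosen after its values were seen, was at 64.0, 61.7 and 68.1 CPM in surrounding tissue and 38.6, 57.2 and 50.1 CPM in polyps, without overlap (-0.43 ± 0.17, adjusted p = 0.294, edgeR).

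The proton-carrying c ring of ATP synthase is made from one mature protein that 3 genes encode with different import sequences. Atp5g2 (ENSMUSG00000062683) had the lowest log2 fold change of any nuclear subunit, -1.39 ± 0.52, at 3.504, 8.69 and 4.28 CPM in surrounding tissue and 2.18, 2.55 and 1.28 CPM in polyps. The groups did not overlap, and the adjusted p was 0.254 (edgeR). Atp5g1 was at 5.49, 10.3 and 5.41 CPM in surrounding tissue and 4.23, 5.84 and 3.84 CPM in polyps (-0.57 ± 0.37), lower in the polyp of each mouse but with overlap. Atp5g3 was at 60.9, 42.8 and 39.7 CPM in surrounding tissue and 47.6, 45.8 and 40.1 CPM in polyps (-0.08 ± 0.17). The 3 genes thus had log2 fold changes of -1.39, -0.57 and -0.08, and the difference between them was not tested; Atp5g1 and Atp5g3 were added after their values were seen. Of the Atp5g2 transcript, 87.4% of its 50-base windows also occur in a transcript of another gene, so its counts depend on how the authors' counting treated reads that match more than 1 place. This share passed 50% in 5 nuclear members, Atp5g2, Atp5l, Atp5o, Cox7c and Sdhaf1.

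The assembly factors were the least well measured. Of the 14 members that are not subunits 8 were tested, with a median log2 fold change of -0.13 and 1 interval within 2-fold. Ndufaf1 (ENSMUSG00000027305), which helps to build the membrane arm of complex I, had the smallest p of this class, at 6.35, 3.63 and 4.28 CPM in surrounding tissue and 2.78, 1.15 and 3.56 CPM in polyps (-1.04 ± 0.54, adjusted p = 0.446, edgeR). The polyps lay below the surrounding samples, with the closest pair of values only just apart. The 6 members left untested, with 30 to 98 counts over the 6 libraries, were Ndufaf2, Ndufaf6, Ndufaf8, Sdhaf1, Sdhaf3 and Sdhaf4. In 2 of them a single library held most of the counts: 46 of 56 for Ndufaf6 in the surrounding tissue of mouse 1192, and 73 of 98 for Sdhaf4 in the polyp of the same mouse.

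The 12 mitochondrial members were far more abundant than the nuclear ones. Per kilobase of transcript their median was 1786 CPM, against 18.5 CPM for the nuclear subunits. Mitochondrial DNA is known to be read as long transcripts from both strands that are cut at the tRNAs between the genes, and mt-Nd6 is the protein gene on the strand opposite to all others. mt-Co1, the oxygen-reducing core of complex IV (ENSMUSG00000064351), stood at 9858 CPM per kb and took 47.1% to 53.7% of the counts of the mitochondrial members in every library. The lowest per kilobase were mt-Atp8 and mt-Nd3, at 217 and 211 CPM per kb, and both are short genes. Between 98.0% and 100% of the windows of mt-Co2, mt-Co3, mt-Atp6 and mt-Nd3 also occur in transcripts of other genes, as do 62.2% of mt-Nd4 and 51.1% of mt-Co1, so levels between these genes depend on the authors' treatment of such reads. mt-Atp8 overlaps mt-Atp6, and mt-Nd4l, with 9 counts, overlaps mt-Nd4.

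Of the mitochondrial members 11 had a negative and 1 a positive log2 fold change, where 5650 of all 10960 tested genes had a negative one. The 12 genes share 1 genome and are not independent, so this tally is a description. In mouse 1199 all 12 were lower in the polyp, in mouse 1192 7 and in mouse 1119 4. None passed the test, and no gene separated the tissues. Every interval lay within 2-fold. mt-Co1 was at 15132, 11236 and 22436 CPM in surrounding tissue and 16354, 10593 and 15636 CPM in polyps. The surrounding samples of mice 1192 and 1199 enclosed every polyp but that of mouse 1192, and the log2 fold change was -0.16 ± 0.20 (interval -0.62 to 0.29). mt-Nd6 (ENSMUSG00000064368), a membrane subunit of complex I, had the lowest fold change, -0.37 ± 0.18 (adjusted p = 0.413, edgeR), at 482, 267 and 667 CPM in surrounding tissue and 422, 261 and 358 CPM in polyps. It was lower in the polyp of every mouse, by little in mouse 1192 and by most in mouse 1199, without which the value was -0.13. No label states a stranded library, so reads of the opposite strand may be among its counts. mt-Nd3, the one with a positive value, was at 77.9, 46.1 and 91.3 CPM in surrounding tissue and 92.5, 54.0 and 79.9 CPM in polyps (0.10 ± 0.16), and without mouse 1192 its log2 fold change was -0.0069.

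The other membrane subunits of complex I gave overlapping tissues too. mt-Nd1 was at 2119, 1352 and 1999 CPM in surrounding tissue and 2134, 1187 and 1569.7 CPM in polyps (-0.18 ± 0.15). mt-Nd2 was at 1605, 843 and 1307 CPM in surrounding tissue and 1515, 827 and 933 CPM in polyps (-0.20 ± 0.15). In both the polyp of mouse 1199 lay below its surrounding tissue and mouse 1119 hardly differed. mt-Nd4 was at 2626, 1669 and 3278 CPM in surrounding tissue and 3015, 1669.6 and 2359 CPM in polyps (-0.09 ± 0.17). mt-Nd5 was at 2973, 1787 and 3203 CPM in surrounding tissue and 2676, 1836 and 2092 CPM in polyps (-0.24 ± 0.17). In all 4 of these genes mouse 1192 had the lowest level in each tissue.

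mt-Cytb, the electron-carrying cytochrome of complex III, was at 2146, 1393 and 3001 CPM in surrounding tissue and 2349.6, 1608 and 2115 CPM in polyps (-0.05 ± 0.18). The polyps lay within the range of the surrounding samples. Of the remaining core subunits of complex IV, mt-Co2 was at 1959, 1925 and 2489.5 CPM in surrounding tissue and 2376, 1521 and 1847 CPM in polyps (-0.16 ± 0.18). mt-Co3 was at 1562, 1340.4 and 1685 CPM in surrounding tissue and 1746, 1046 and 1305 CPM in polyps (-0.19 ± 0.16). Both were higher in the polyp of mouse 1119 and lower in the polyps of the other mice. mt-Atp6, the proton channel subunit of ATP synthase, shared that order, at 1337, 1307 and 1617 CPM in surrounding tissue and 1548, 951 and 1323 CPM in polyps (-0.18 ± 0.17). mt-Atp8, a small membrane subunit of the same enzyme, was at 85.0, 26.3 and 30.9 CPM in surrounding tissue and 62.9, 33.4 and 27.4 CPM in polyps (-0.09 ± 0.19). For mt-Atp8 mouse 1119 was highest in both tissues.

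**Figure D3:**
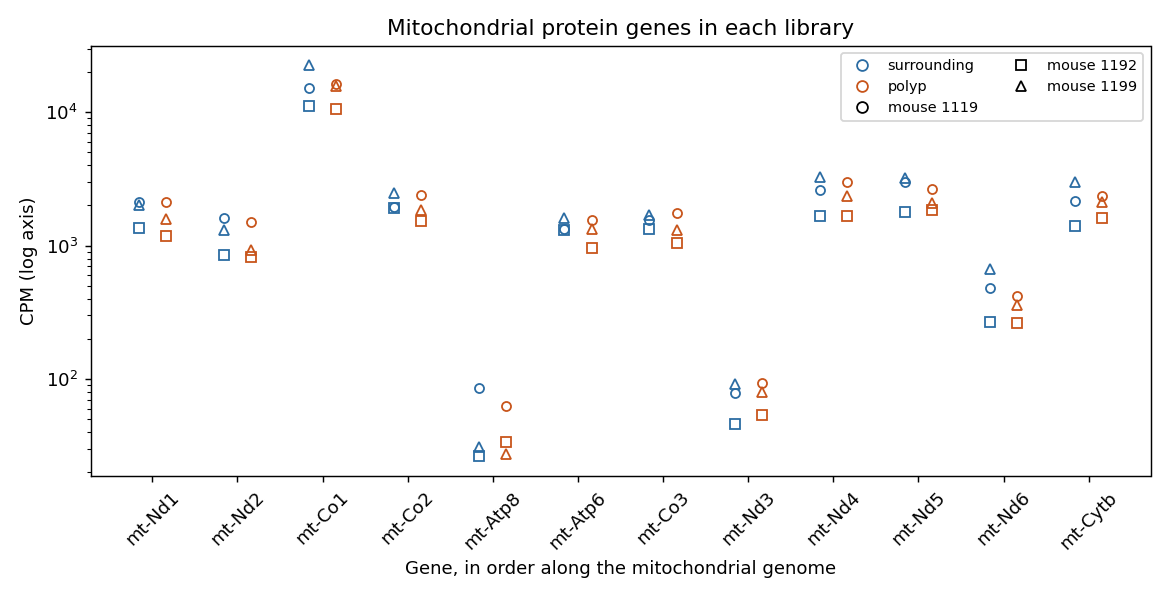
CPM on a log axis of the 12 mitochondrial protein genes, in their order along the mitochondrial genome, with surrounding samples in blue and polyps in orange and a symbol for each mouse. The colours overlap at every gene, mt-Co1 lies highest and mt-Atp8 and mt-Nd3 lowest, and squares (mouse 1192) lie at or near the bottom of most genes in both tissues.

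Set against each other, the 2 genomes gave a ratio that needs no scaling between libraries. The labels' protocols list a kit that takes out mammalian RNA, and the mouse counts may come from RNA treated with it. Whether such removal acted equally on transcripts of both genomes, and equally in each library, was not tested. Summed counts of mitochondrial members were 11.03, 7.93 and 13.7 times those of nuclear members in the surrounding tissue of the 3 mice, and 12.7, 7.32 and 10.4 times in their polyps. The ratio was higher in the polyp of mouse 1119 and lower in the other polyps, with log2 differences of 0.21, -0.12 and -0.39. Their mean was -0.10 with an SD of 0.30 (n = 3 mice), so the difference between tissues was smaller than the spread between mice. Without mouse 1199 the mean was 0.046 and without mouse 1119 it was -0.25. With the mean of log2 CPM over members in place of sums, it was 0.011.

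The sums behind the ratio differed in range. Summed nuclear members stayed between 2695 and 3057 CPM in the 6 libraries, while summed mitochondrial members ranged from 21587 to 41804 CPM. Both sums differed in mouse 1119, where the nuclear sum was 2911 CPM in surrounding tissue and 2695 CPM in the polyp and the mitochondrial sum 32103 and 34290.4 CPM. In mouse 1199 both sums were lower in the polyp, at 3057 and 2847 CPM for nuclear and 41804 and 29645 CPM for mitochondrial members. Within mice 1119, 1192 and 1199 the median mitochondrial difference between polyp and surrounding tissue was 0.12, -0.03 and -0.45 on the log2 scale. The nuclear median was -0.11, -0.15 and -0.08. All 12 mitochondrial members were lower in the polyp of mouse 1199, but 7 of 12 in mouse 1192 and 4 of 12 in mouse 1119. The surrounding tissue of mouse 1199 was also the library with the largest share of mitochondrial rRNA in all its counts, 75.3%, and the lowest normalization factor, 0.593. In the surrounding tissue the rRNA share was 57.3%, 61.8% and 75.3%, and in polyps 62.0%, 46.3% and 56.3%. Like the ratio, it was higher in the polyp of mouse 1119 and lower in the others; its part in the result was not tested.

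**Figure D4:**
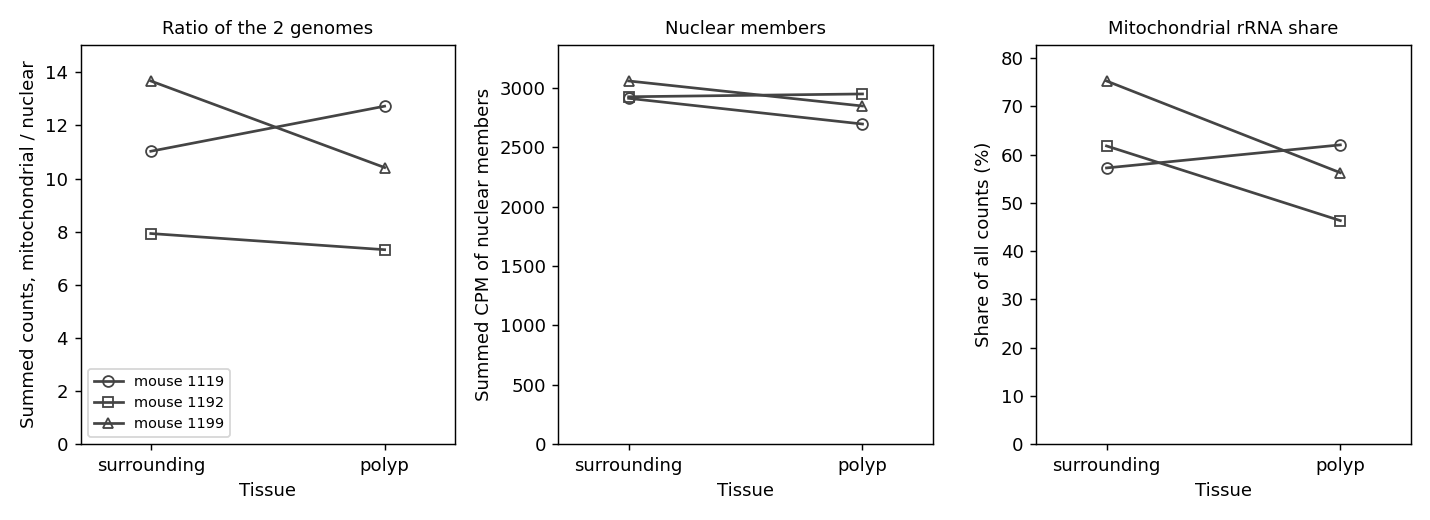
Left, summed counts of mitochondrial over nuclear members; middle, summed CPM of the nuclear members; right, share of all counts in the 2 mitochondrial rRNA genes (percent), each in surrounding tissue and polyp with a line for each mouse. The nuclear sum stays between 2695 and 3057 CPM, while the ratio and the rRNA share rise in mouse 1119 and fall in mice 1192 and 1199.

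**Figure D5:**
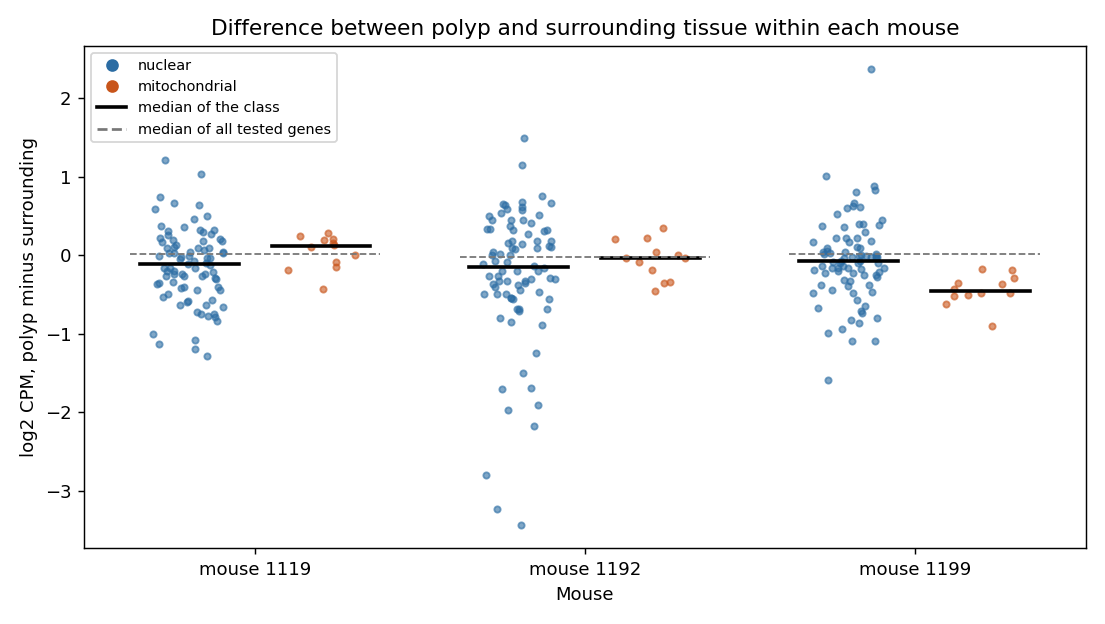
Difference in log2 CPM between polyp and surrounding tissue (vertical axis) of each tested nuclear (blue) and mitochondrial (orange) gene within each mouse, with black bars at the class medians and dashed lines at the median of all tested genes. The mitochondrial medians are 0.12, -0.03 and -0.45, with genes on both sides of 0 in mice 1119 and 1192 and all below 0 in mouse 1199, while the nuclear genes scatter around a median just below 0.

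Large differences within a mouse were less frequent among nuclear members than among all tested genes. The median SE was 0.29 over the nuclear members and 0.34 over all tested genes, and the groups were not matched for level. A difference of over 2-fold within a mouse was seen in 6, 12 and 5 of 84 nuclear members in mice 1119, 1192 and 1199, or 7.14%, 14.3% and 5.95%, against 18.8%, 28.7% and 15.5% of all tested genes. In mouse 1192, 10 of the 12 were lower in the polyp, among them the accessory subunits Ndufa13 and Ndufab1. Ndufa13, named here after its values were seen, was at 3.69, 2.99 and 1.80 CPM in surrounding tissue and 4.84, 0.0822 and 2.84 CPM in polyps. Ndufab1, the acyl carrier protein, also named after its values were seen, was at 13.7, 20.9 and 11.7 CPM and 17.3, 5.18 and 14.5 CPM. Both were low in the polyp of mouse 1192 alone, so neither separated the tissues. Across the 84 nuclear genes the size of the fold change went down with the number of counts (Spearman's rho -0.45), and fold change had little relation to transcript length (rho 0.04) or GC content (rho -0.16). Genes of 1 library share its depth and are not independent, so these are descriptions.

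Lists of genes that work beside oxidative phosphorylation gave 1 call in all, where 2.76% of all tested genes were called. No call was made among 72 tested mitochondrial ribosomal proteins (median log2 fold change -0.17), 12 electron carriers and feeder enzymes (-0.23), 32 further assembly factors (-0.18), 20 genes of mitochondrial DNA transcription and maintenance (-0.35), 17 regulators of mitochondrial biogenesis (-0.21) and 11 genes of coenzyme Q synthesis (-0.05). Unadjusted p under 0.05 were reached by 0, 1, 0, 2, 3 and 1 of them, against 14.6% of all tested genes. The 1 call was in the list of 20 genes of the citric acid cycle and pyruvate dehydrogenase: Me2, the mitochondrial malic enzyme that makes pyruvate from malate. Me2 was at 57.2, 67.0 and 51.2 CPM in surrounding tissue and 20.3, 46.8 and 23.0 CPM in polyps. It fell without overlap, by 1.04 on the log2 scale (SE 0.21, adjusted p = 0.0395, edgeR). The call was lost without mouse 1119 (adjusted p = 0.176) and without mouse 1199 (0.233), in the fit without the mouse as a block (0.198) and without robust spread estimates (0.0532). The median of that list was -0.19. Cycs, the somatic cytochrome c that carries electrons from complex III to complex IV, was at 23.8, 46.6 and 35.6 CPM in surrounding tissue and 19.1, 19.4 and 26.6 CPM in polyps, a log2 fold change of -0.68 ± 0.23 (adjusted p = 0.208, edgeR).

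Markers of several cell types differed between the tissues in the same libraries. Over all tested genes 2.76% were called, and 1.04% were called with a lower level in polyps. Absorptive colonocyte markers changed in 7 of 18 tested genes, all lower in polyps, with Slc26a3 at 594, 445 and 395 CPM in surrounding tissue and 81.2, 138 and 88.2 CPM in polyps; their summed level was 13978 to 19955 CPM in surrounding tissue and 11112 to 15144 CPM in polyps, and it was lower in the polyps of mice 1119 and 1199 but higher in that of mouse 1192 (13978 and 14837 CPM). Fibroblast markers changed in 8 of 15, all higher, with sums of 108 to 225 CPM and 365 to 815 CPM. Smooth muscle markers changed in 2 of 15, both lower, with 503 to 581 CPM and 284 to 374 CPM. Of these 15, 14 had a negative log2 fold change (median -1.58). In the polyp of every mouse 11 were lower, and 10 had an unadjusted p under 0.05 (edgeR), against 18.6% and 14.6% of all tested genes. General epithelial markers changed in 3 of 15, all higher keratins (Krt8, Krt18 and Krt19), with 4370 to 7248 CPM and 6836 to 8952 CPM. Of the 15 epithelial markers, 12 had a positive and 3 a negative log2 fold change (median 0.27). In the polyp of every mouse 8 were higher and 3 were lower, against 19.7% and 18.6% of all tested genes. None of 7 endothelial markers passed the test (12.3 to 23.0 CPM and 19.7 to 56.6 CPM), but all 7 had a positive log2 fold change (median 1.26). Of them 5 were higher in the polyp of every mouse and 3 had an unadjusted p under 0.05 (edgeR), against 19.7% and 14.6% of all tested genes. None of 8 leukocyte markers passed the test (28.5 to 58.8 CPM and 30.8 to 64.6 CPM; 1 had an unadjusted p under 0.05). Of 2 tested neuron and glia markers, Ret was called higher, while the other had a negative log2 fold change of -1.02. Their list summed to 6.98 to 8.79 CPM and 18.3 to 25.7 CPM, and most of the polyp sums was Ret alone (17.4, 21.3 and 17.5 CPM). These counts depended on the mice kept: leaving out 1 mouse at a time gave 3 to 8 colonocyte, 6 to 11 fibroblast, 1 to 5 smooth muscle, 1 epithelial and 0 to 1 neuron and glia calls. Markers of cardiac and skeletal muscle, tissues rich in these enzymes, summed to 0.0712 to 1.35 CPM and 1.71 to 4.35 CPM, with 5 of 10 at 0 in every library. The part of these differences in the levels of the members was not tested.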

How the data were processed

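Expression was measured by RNA sequencing in 3 serrated polyps and 3 samples of surrounding cecum from the same 3 mice. Per the labels' protocols, RNA went through MICROBEnrich, a kit that takes out mammalian RNA, and a kit against bacterial rRNA before paired-end libraries were made. If the mouse counts come from that RNA, they cover what remained after removal. The authors deposited raw counts per gene, whole numbers without normalization. The submitters' processing notes list HTSeq 0.5.3p9, TopHat2 2.0.7 and Bowtie 0.12.9. Settings, genome build, annotation and treatment of strand were not given in the sources used here.

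Symbols, transcript lengths and transcript sequences came from GENCODE M21, which named 32938 of 37991 identifiers. Its 1 principal transcript per gene gave the levels per kilobase, and 50-base windows shared with transcripts of other genes were counted. The test was edgeR 4.0.16 (R 4.3.3, limma 3.58.1), two-sided and robust, with TMM factors from 0.593 to 1.43, filterByExpr with its minimum count of 10 and the mouse as a block, fitted to 10960 genes. It had 2 residual and 6.63 prior degrees of freedom, and the biological coefficient of variation was 34.3%. The SE was derived from the test statistic. Intervals cover 95%. Simulated counts with known changes were fitted too. Their means and spread came from a fit to these data, they had no effect of the mouse, and their result is not given here.

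The mouse numbers in the titles pair the samples. Deviations from the tissue means correlated at 0.0719, 0.127 and 0.159 within mice, and at -0.1199 to -0.00294 between mice. Since a gene's deviations in a tissue sum to 0, values above 0 within mice bring values below 0 between mice, and the latter add no separate evidence. The members and all gene lists were chosen with earlier results of these data known, so no set test was run. Named by rule were the mitochondrial members and, per complex, the 2 nuclear subunits with the highest level per kilobase and those with the highest and lowest fold change. If a class had no call, the gene with its smallest p was named too; in each related list, up to 4 called genes. The results of 1 gene that met this rule are not reported here. Alternatives were no block, RLE and upper-quartile factors, scaling without mitochondrial genes, no filter, a mean of at least 5 CPM, no robustness, DESeq2 1.42.0, limma-voom, removal of length and GC trends, and leaving out each mouse. Applying them to the related lists and to members named outside the rule was added after seeing the data. Python 3.11.15 made the tables and figures.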

Additional observations from a re-analysis of the deposited data

How the results depend on the processing

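No member passed the threshold under any of the 13 alternatives; the smallest adjusted p of a member ran from 0.0672 (no filter) to 0.373 (without mouse 1199), and the replicate block changed no call of a member. The number of all genes called was 303, and 87 without the replicate block, 753 with no filter, 536 with DESeq2 and 83 to 281 when 1 mouse was left out. Without 1 mouse the nuclear median of -0.11 ran from -0.17 to -0.054, the mitochondrial median of -0.17 from -0.28 to -0.068, and the mean difference in the ratio of the genomes from -0.25 to 0.046. Of the values of the genes named by rule under the alternatives, 390 kept their direction and 10 did not. The log2 fold changes that turned when 1 mouse was left out ranged from -0.0069 to 0.22 for mt-Nd3 (lowest without mouse 1192), -0.24 to 0.084 for mt-Nd4 and -0.23 to 0.15 for mt-Cytb (both highest without 1199), and -0.35 to 0.093 for mt-Atp8 (highest without 1119). They ranged from -0.10 to 0.092 for Atp5a1 (lowest without 1192), -0.13 to 1.33 for Ndufs5 and -0.019 to 0.048 for Uqcrc1 (both lowest without 1199), and -1.70 to 0.18 for Cox7c, -1.77 to 0.46 for Ndufa13 and -0.88 to 0.28 for Ndufab1 (all 3 highest without 1192). For Cox7a1 the range was -0.92 to 0.061 and for Atp5g3 -0.22 to 0.054 (both highest without 1119). Without changing sign when 1 mouse was left out, Uqcrb ranged from -0.55 to -0.0077, mt-Co1 from -0.31 to -0.0025, mt-Nd6 from -0.58 to -0.13, Ndufb9 from -0.51 to -0.044 and Atp5e from 0.094 to 0.55. Atp5g3 was at 0.033 with length and GC trends removed, and upper-quartile normalization gave -0.0070 for Uqcrc1 and -0.020 for Atp5a1. In the citric acid cycle list, 0 genes were called without the replicate block or without robustness, 2 with no filter and 0 to 1 without 1 mouse; among mitochondrial DNA genes 1 was called with no filter. Epithelial markers gave 0 calls without the block, and 1 with upper-quartile factors, with mitochondrial genes out of the scaling, without robustness, with length and GC trends removed and without any 1 mouse. Calls without the block were 4 for colonocyte, 1 for smooth muscle and 5 for fibroblast markers. Without 1 mouse they were 3 to 8 for colonocyte, 1 to 5 for smooth muscle, and 0 to 1 for neuron and glia markers. Smooth muscle markers gave 8 with no filter, 4 at a mean of at least 5 CPM and 7 with DESeq2. The cause of these shifts was not tested.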
